A study of Homo sapiens with 4 samples.

Results

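Liver and endoderm transcription factors were followed as 8 genes in RNA-seq of 4 libraries. The genes were HNF4A, HNF4G, FOXA1, FOXA2, FOXA3, CEBPA, CEBPB and ONECUT2, taken by gene symbol, and all 8 were found among the 59050 genes listed in the deposited counts. The labels name the cells HepG2, a line that was derived from a human liver tumor. The untreated group (0 h) held 2 libraries of cells that received no drug. The other 2 libraries came from cells given doxorubicin at 1 ug/ml for 24 h, which breaks DNA and thereby activates p53. The drug and the time of 24 h came together, so that their parts in any change between the groups cannot be told apart. Both groups were grown as the same line in the same serum-containing medium, and poly(A) RNA was sequenced. The groups follow the titles, which read nop53 for the untreated and p53 for the doxorubicin libraries and do not name the drug. The drug follows the treatment protocol, although the treatment tag of the doxorubicin libraries reads p53-miRNA. The replicates are called biological without further detail, and p-values measure the spread between these libraries only.

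Transcription factors of these families set up the endoderm and later hold the hepatocyte program in place. FOXA proteins are pioneer factors that open chromatin at liver enhancers, HNF4A is a nuclear receptor that controls a large part of the genes of mature hepatocytes, and HNF4G is its paralog. CEBPA is linked to metabolic genes and to withdrawal from the cell cycle, CEBPB is induced in inflammation and the acute phase response and acts in many other tissues, and ONECUT2 is a cut-homeobox factor of liver and biliary development. The deposited count of each gene was scaled to the total of its library to give CPM (counts per 1000000 counts). A gene was called expressed when its CPM was at least 1 in all 4 libraries, absent when it had at most 3 counts in every library, and low in all other cases.

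Of the 8 factors, 4 were expressed in all libraries (CEBPB, ONECUT2, FOXA1 and CEBPA), 3 were low (HNF4A, HNF4G and FOXA3) and 1 was absent (FOXA2). The library totals lay between 27572740 and 36272180 counts, and 3 counts corresponded to a CPM between 0.0827 and 0.109. Untreated replicate 2 stood apart from the rest. Across the 17479 genes that passed the filter on low counts, it was higher or lower than each of the other 3 libraries in 81.6%, and the Pearson correlation of log2 CPM across genes was 0.887 between the untreated replicates against 0.988 between the doxorubicin replicates (genes are not independent replicates). Among the 8 factors it was the highest of the 4 libraries in 5 and the lowest in 2, so that the changes of the factors are given with and without it.

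**Figure D1:**
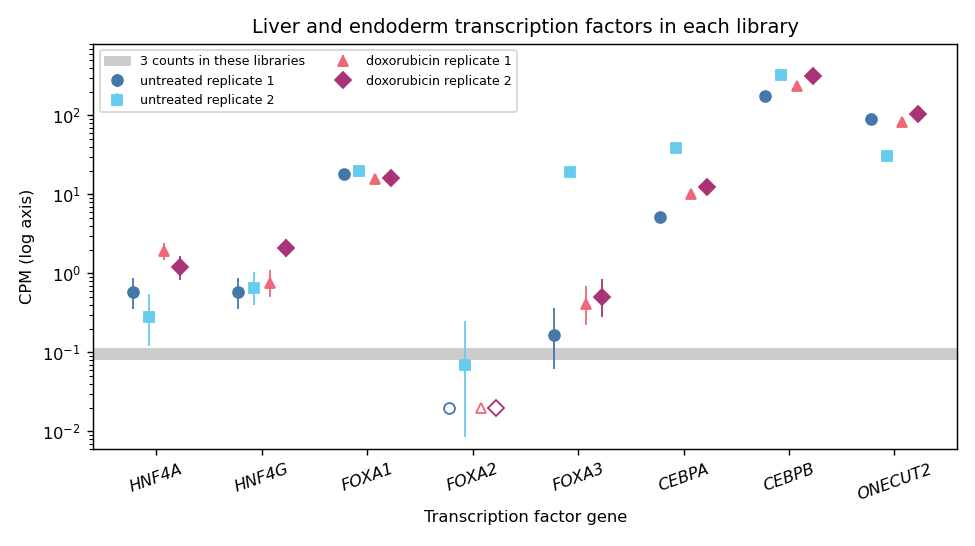
CPM (log axis) of the 8 transcription factor genes in each of the 4 libraries. Points are single libraries, bars are exact 95% Poisson intervals that cover counting error only, open symbols (placed at an arbitrary height) stand for 0 counts, and the grey band is the CPM of 3 counts. CEBPB lies between 175 and 327 in every library, FOXA2 at or under the band, and FOXA3 is at 19.3 in untreated replicate 2 against at most 0.508 in the others.

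CEBPB had the highest level of the 8 genes. It is encoded by a single exon on chromosome 20 (50190830 to 50192668, GRCh38, plus strand). It was at 175 CPM in untreated replicate 1 and at 327 CPM in untreated replicate 2, while the treated libraries had 234 and 319 CPM. The groups overlapped, with the lowest and the highest library both untreated. Per kb of annotated exon its CPM was 95.02 and 178 without the drug and 127 and 174 with it, which placed it between the 96.6th and the 98.5th percentile of the 18836 protein-coding genes ranked in each library. CEBPB-AS1, an antisense gene that overlaps CEBPB, had 21 and 147 counts without the drug and 50 and 37 with it, and since the use of strand in counting is not known, reads of overlapping genes cannot be told apart.

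CEBPA, on chromosome 19 (33299934 to 33302534, minus strand), was expressed at a far lower level. Its CPM was 5.18 and 39.0 in untreated replicates 1 and 2, against 10.2 and 12.3 in the same order for doxorubicin. Both treated libraries lay between the untreated ones. On the scale of CPM per kb, CEBPB exceeded CEBPA by 47.7-fold and 11.9-fold in the untreated libraries and by 32.3-fold and 36.6-fold in the treated ones. CEBPA was thus below CEBPB in every library, and the ratio was smallest in untreated replicate 2.

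The RefSeq promoter windows of both genes, the 250 bases before the annotated start, are shown because the genes differ in level while their windows share a base composition and a TATA box. Capitals mark 2 motifs. TATAAA is the TATA box. The short form of the cAMP response element is TGACG, and both strands were searched for each.
CEBPB promoter (chr20:50190580-50190829, plus strand, GRCh38.p14): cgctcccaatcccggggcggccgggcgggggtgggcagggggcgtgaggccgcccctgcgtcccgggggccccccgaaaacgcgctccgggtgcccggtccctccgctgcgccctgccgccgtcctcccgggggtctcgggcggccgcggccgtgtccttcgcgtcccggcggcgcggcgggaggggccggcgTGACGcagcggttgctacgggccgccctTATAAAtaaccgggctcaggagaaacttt
CEBPA promoter (chr19:33302535-33302784, minus strand, GRCh38.p14): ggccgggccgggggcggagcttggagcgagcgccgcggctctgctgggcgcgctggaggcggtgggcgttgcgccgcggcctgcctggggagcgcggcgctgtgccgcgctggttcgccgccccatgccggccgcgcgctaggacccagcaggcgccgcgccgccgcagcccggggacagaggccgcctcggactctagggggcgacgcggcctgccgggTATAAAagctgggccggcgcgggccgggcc
The window of CEBPB held 38 CpG dinucleotides and that of CEBPA held 41, against a median of 11 over 35116 RefSeq windows of the same length. TATAAA started 29 bases before the start of CEBPB and 30 bases before that of CEBPA, and 10.7% of all windows held it. TGACG was found 57 bases before the start of CEBPB, as it was somewhere in 21.2% of all windows. No match to TTGCNNAA, a form of the C/EBP site, was found in either window, and 9.05% of all windows held one. Such matches describe the letters of the windows and not binding.

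The other C/EBP genes put these levels in context. Summed over CEBPA, CEBPB, CEBPD, CEBPE and CEBPG, the CPM per kb was 169 and 303 before treatment and 197 and 266 after it. CEBPB made up 56.2% and 58.7% of this sum in the untreated libraries and 64.5% and 65.2% in the treated ones. CEBPD, the other C/EBP gene that is induced in the acute phase, made up 35.9% and 29.8% of it without the drug and 25.4% in each treated library. CEBPA contributed between 1.18% and 4.94%, and CEBPE, a factor of granulocytes, at most 0.0685%. CEBPG, a partner of other bZIP proteins without an activation domain of its own, was at 45.4 and 80.3 CPM without the drug and at 64.2 and 81.7 CPM with it. DDIT3, a stress-induced relative that blocks C/EBP dimers, had a CPM of 20.4 and 136 in the untreated libraries and of 67.6 and 75.1 in the treated ones, the same order of libraries as CEBPA.

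ONECUT2 had the second highest CPM of the 8 factors in 3 of the 4 libraries. It lies on chromosome 18 (57435374 to 57491298, plus strand) and has 16433 bases of annotated exon, the longest of the 8. Its CPM was 89.3 and 30.5 in untreated replicates 1 and 2, against 82.4 and 104 with the drug. The groups overlapped. Untreated replicate 2 was 0.341 times untreated replicate 1, and the other 3 libraries lay close together. Per kb, ONECUT2 was at 5.43 and 1.85 CPM without the drug and at 5.01 and 6.34 CPM with it. ONECUT2 made up between 94.2% and 99.0% of the summed CPM per kb of the ONECUT family. ONECUT1 (also named HNF6), the member best known from hepatocytes, had between 7 and 10 counts in each library, and ONECUT3 had between 0 and 7.

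The promoter window of ONECUT2 is given for contrast with the C/EBP windows, with TGACG in capitals on either strand.
ONECUT2 promoter (chr18:57435124-57435373, plus strand, GRCh38.p14): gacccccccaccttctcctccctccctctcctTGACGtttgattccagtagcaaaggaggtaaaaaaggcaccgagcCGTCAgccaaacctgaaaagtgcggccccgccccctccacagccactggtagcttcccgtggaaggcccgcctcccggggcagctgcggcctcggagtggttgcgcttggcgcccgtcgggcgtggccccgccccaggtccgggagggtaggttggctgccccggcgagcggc
It held 20 CpG dinucleotides and no match to the TATA box. The motif TGACG was found 218 bases before the start on the sense strand and its complement 173 bases before the start. No TGTTTAC, the core of the FOXA site, was found in any of the 3 windows shown, and 2.98% of all windows held it.

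FOXA1 was the steadiest of the expressed factors and the FOXA gene with most reads in all 4 libraries. It lies on chromosome 14 (37589552 to 37596059, minus strand). Its CPM was 18.3 and 19.9 in the untreated libraries and 15.8 and 15.9 in the treated libraries, a mean of 19.1 ± 1.20 (SD, n = 2) against 15.8 ± 0.0635 (SD, n = 2). Both treated libraries were below both untreated ones, as was the case in 11.5% of all genes tested. Per kb, FOXA1 was at 5.20 and 5.68 CPM without the drug and at 4.50 and 4.53 CPM with it, levels that overlapped with those of ONECUT2. TTC6, which overlaps FOXA1 on the other strand, had a CPM between 0.414 and 1.21.

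FOXA3 was the factor in which untreated replicate 2 differed most. This gene, on chromosome 19 (45863989 to 45873797, plus strand), encodes the FOXA protein that is most abundant in adult liver. It had 6 counts in untreated replicate 1, 556 in untreated replicate 2 and 14 in each of the doxorubicin libraries, a CPM of 0.165, 19.3, 0.408 and 0.508. Untreated replicate 2 was 116-fold above untreated replicate 1, 47.2-fold above doxorubicin replicate 1 and 37.9-fold above doxorubicin replicate 2. In that library FOXA3 made up 63.7% of the summed CPM per kb of the FOXA genes, against between 1.63% and 5.51% in the other 3. SYMPK, which starts within 5 kb of FOXA3 on the other strand, had a CPM between 197 and 254 without such a difference.

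FOXA2, which acts with FOXA1 at the onset of liver development and marks definitive endoderm, was absent. It lies on chromosome 20 (22580998 to 22585455, minus strand). It had 2 counts in untreated replicate 2 and 0 in the other 3 libraries, where 3 counts, taken as the limit that a count of 0 allows, correspond to a CPM of 0.0827, 0.0874 and 0.109 (the upper ends of the exact 95% Poisson intervals were 0.102, 0.108 and 0.134). LINC00261, a noncoding gene next to FOXA2, had 3 counts in untreated replicate 2 and 0 elsewhere.

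HNF4A was below a CPM of 1 in both untreated libraries and above it in both treated ones, and is counted as low. The gene lies on chromosome 20 (44355699 to 44432845, plus strand). It had 21 and 8 counts without the drug and 66 and 33 with it, which is a CPM of 0.579 and 0.277 against 1.92 and 1.20. Both treated libraries were above both untreated ones, as in 30.3% of all genes tested. The exact 95% Poisson intervals, which cover counting error only, were 0.358 to 0.885 and 0.12 to 0.546 in the untreated libraries and 1.49 to 2.45 and 0.824 to 1.68 in the treated ones, so that those of untreated replicate 1 and doxorubicin replicate 2 overlapped. Per kb, HNF4A lay between the 24.9th and the 40.3rd percentile of protein-coding genes. HNF4A-AS1, an antisense gene that overlaps it, had 0 counts in all 4 libraries.

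HNF4G, the paralog on chromosome 8, was found at similar low levels. It had 21 and 19 counts without the drug and 26 and 58 with it, a CPM of 0.579 and 0.658 against 0.758 and 2.10. Both treated libraries were above both untreated ones, as in 30.3% of all genes tested, and doxorubicin replicate 2 was the only library above a CPM of 1. Within the HNF4 pair, HNF4A had between 26.2% and 68.1% of the summed CPM per kb, with no order that held in both treated libraries.

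**Figure D2:**
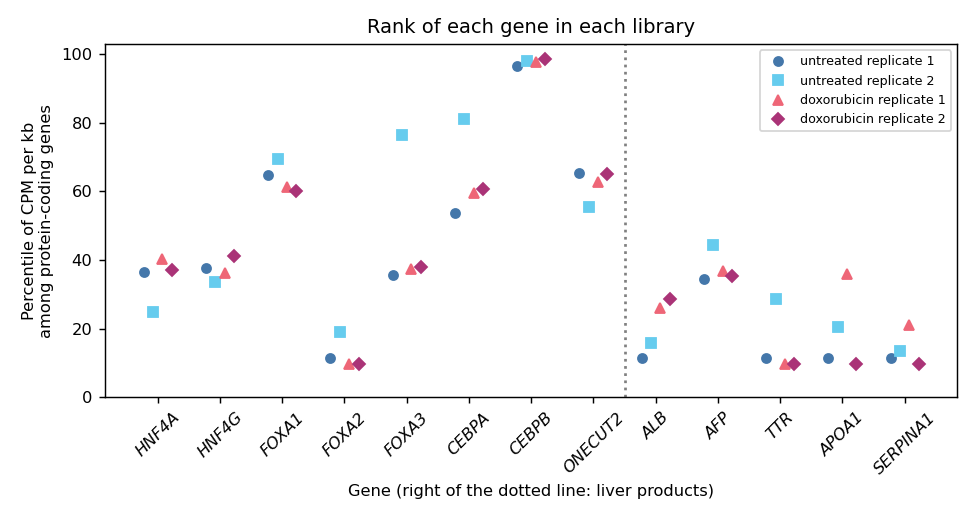
Percentile of CPM per kb of exon among 18836 protein-coding genes, for the 8 factors and for 5 liver products to the right of the dotted line. Each point is 1 library, and genes at 0 counts share a rank near the bottom. CEBPB lies above the 96th percentile, FOXA1, CEBPA and ONECUT2 lie in the middle to upper range, and HNF4A, HNF4G and the liver products lie in the lower part.

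The labelled cell type was then compared with the products that these factors control. Of 28 genes for hepatocyte proteins, 2 were expressed in all libraries, 17 were low and 9 were absent. ALB, the albumin gene, had 0 and 1 counts without the drug and 2 and 3 with it. TTR, which carries thyroid hormone, had at most 2 counts and SERPINA1, the gene of alpha-1 antitrypsin, at most 1. APOA1, the main protein of HDL, had at most 6 counts, and AFP, the fetal albumin that liver tumors often secrete, had 6, 43, 16 and 11 counts in the order of untreated replicates 1 and 2 and doxorubicin replicates 1 and 2. F9, a clotting factor gene, had 0 in every library. The genes expressed were CPS1, an enzyme of the urea cycle that intestine also makes, with a CPM between 317 and 1081, and VTN, the gene of vitronectin, with a CPM between 9.83 and 22.4. The list summed to a CPM of 1093 in untreated replicate 1 and 335 in untreated replicate 2, and to 845 and 687 in doxorubicin replicates 1 and 2, most of it from CPS1. The levels of HNF4A and FOXA2 and of ALB, TTR, SERPINA1, APOA1 and F9 went against the label of liver-derived cells in all 4 libraries. That of FOXA3 did so in the 3 libraries other than untreated replicate 2. Other genes did not: CPS1, VTN, FOXA1, CEBPA and ONECUT2 were expressed, as were GATA6 and HHEX of early endoderm. The fibrinogen chain genes FGG (9.76 and 14.0 CPM) and FGB (3.09 and 2.54 CPM) were above a CPM of 1 with the drug. Without the drug both had at most 0.193 CPM. AFP reached 1.49 CPM in untreated replicate 2 and at most 0.466 CPM in the others. FGG, FGB and AFP were called low by the rule above and are not counted in favor of the label. Of the 28 products, 2, 5, 4 and 5 had a CPM of at least 1, in the order used for AFP. The cells are called here by their label only. In bulk RNA, fewer cells of a type and less RNA per cell cannot be told apart.

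Other factors of the liver and endoderm were counted next. Of 19 such genes, 8 were expressed, 9 were low and 2 were absent. TBX3, a T-box factor of the liver bud and many other tissues, had the highest CPM of them, between 81.9 and 108. GATA6 and HHEX, both of early endoderm, had a CPM between 16.4 and 29.1 and between 16.3 and 29.6. SOX17, which marks endoderm and endothelium, had a CPM between 6.78 and 16.2. PROX1, which marks hepatoblasts, and NR1H4, the bile acid receptor FXR, were absent, with at most 2 counts. NR0B2, a repressor that is a target of NR1H4, had 63 counts in untreated replicate 2 and at most 3 in the others. RXRA and PPARA, nuclear receptors of lipid metabolism, were lowest in untreated replicate 2, with a CPM of 4.33 and 2.53 there against at least 44.4 and 13.0 elsewhere.

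Markers of other tissues were counted in the same way. Among 6 general epithelial markers, KRT8, KRT18 and CLDN4 were expressed, with a CPM of KRT8 between 2088 and 4105, while EPCAM had at most 7 counts and CDH1 at most 21. Of 12 squamous markers, KRT17, SFN and KRT14 were expressed, and TP63 had at most 11 counts. Of 8 mesenchymal markers, 5 were expressed, VIM with a CPM between 718 and 1011, and COL1A2 was absent. The lists for intestine, lung, pancreas and blood had 0 expressed genes. No cell type is named from these lists, and their part in the levels of the 8 factors was not tested.

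**Figure D3:**
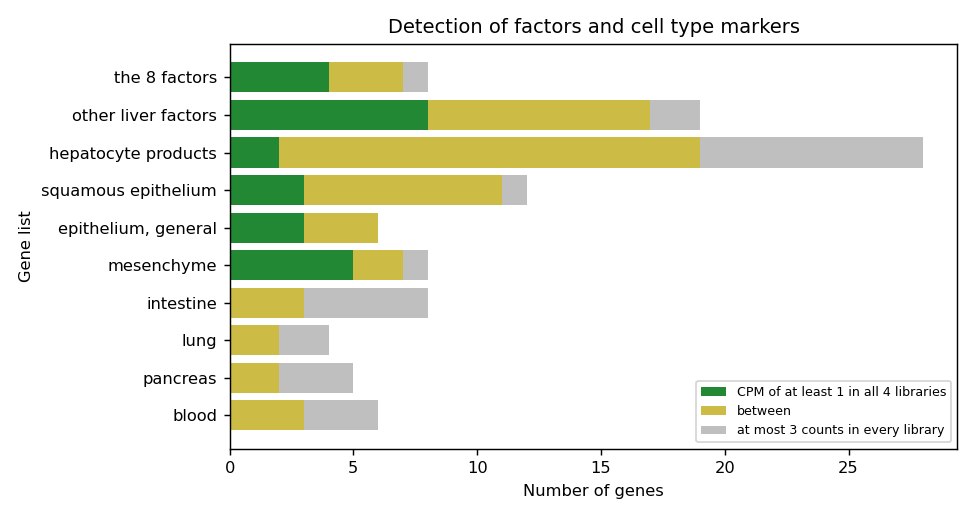
Number of genes in each list (x axis) by detection. Green bars are genes with a CPM of at least 1 in all 4 libraries, yellow bars genes between, and grey bars genes with at most 3 counts in every library. Of the 8 factors 4 are expressed, of the 28 hepatocyte products 2, and of the 8 mesenchymal markers 5.

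The change with doxorubicin was tested by the quasi-likelihood test of edgeR across all 17479 genes that passed the filter on low counts, 7 of the 8 factors among them (FOXA2 did not pass). Of these 7 factors, 0 passed the thresholds of the study, as did 0% of all genes tested. The thresholds were 0.05 for the p-value after Benjamini-Hochberg adjustment, together with an absolute log2 change of 1 or more. The paper reports mRNAs changed in both directions at these thresholds with edgeR, and it does not name the edgeR test. On simulated data with the spread estimated from these libraries, taken as equal in both groups, the test used here called 26 of 193 genes changed by a log2 of 2. It also called 4 unchanged genes there. Of the 7 factors, 0 had an unadjusted p-value under 0.05, against 4.39% of all genes. The 7 log2 fold changes had a median of -0.023, with 3 above 0 and 4 below, against a median of 0.013 over all genes. With the replicate number as a block 0 of the 7 were called, against 0.114% of all genes, and DESeq2 called 0 of the 7 against 0.509%. Without untreated replicate 2 it was 0 of the 7 against 4.44%, and 4 had an unadjusted p-value under 0.05 against 19.1%. Without untreated replicate 1, HNF4A, FOXA3, CEBPA and ONECUT2 were called, against 44.4% of all genes. With library size alone in place of TMM factors, HNF4A was the 1 factor with an unadjusted p-value under 0.05, against 4.58%.

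HNF4A had the largest positive change of the 7. Its log2 fold change was 1.68 (standard error 0.69, 95% interval -0.034 to 3.40), and its adjusted p-value was 0.773 (edgeR, Benjamini-Hochberg). The sign held with each library left out, from 1.27 to 2.42. Without untreated replicate 2 it was 1.31 (standard error 0.55), with an adjusted p-value of 0.144 (edgeR) and an unadjusted one of 0.0174. For HNF4G the log2 fold change was 1.01 (standard error 0.72, interval -0.79 to 2.81), and it was 1.10 without untreated replicate 2 and 0.23 without doxorubicin replicate 2, the library with its highest count.

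The log2 fold change of FOXA1 was -0.43 (standard error 0.39, interval -1.40 to 0.55). With each library left out it was between -0.42 and -0.34 (-0.35 without untreated replicate 2), the narrowest range of the 7 factors. FOXA3 had -4.54 (standard error 1.91, interval -9.32 to 0.23), the largest in size, and it rested on 1 library, because the value was 1.29 (standard error 0.86) without untreated replicate 2.

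The log2 fold change of CEBPA was -1.12 (standard error 0.91, interval -3.38 to 1.14). Without untreated replicate 2 the sign turned to 0.97 (standard error 0.32), with an adjusted p-value of 0.0396 in that edgeR fit and a fold just under the threshold of 1. Without untreated replicate 1 it was -1.88 (standard error 0.26). CEBPB had -0.023 (standard error 0.40, interval -1.01 to 0.96), and its sign was positive with library size alone in place of TMM factors (0.14). Without untreated replicate 2 it was 0.51 (standard error 0.23), with an adjusted p-value of 0.173 (edgeR). ONECUT2 had 0.47 (standard error 0.55, interval -0.91 to 1.86), with -0.087 without untreated replicate 2 and 1.53 without untreated replicate 1.

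**Figure D4:**
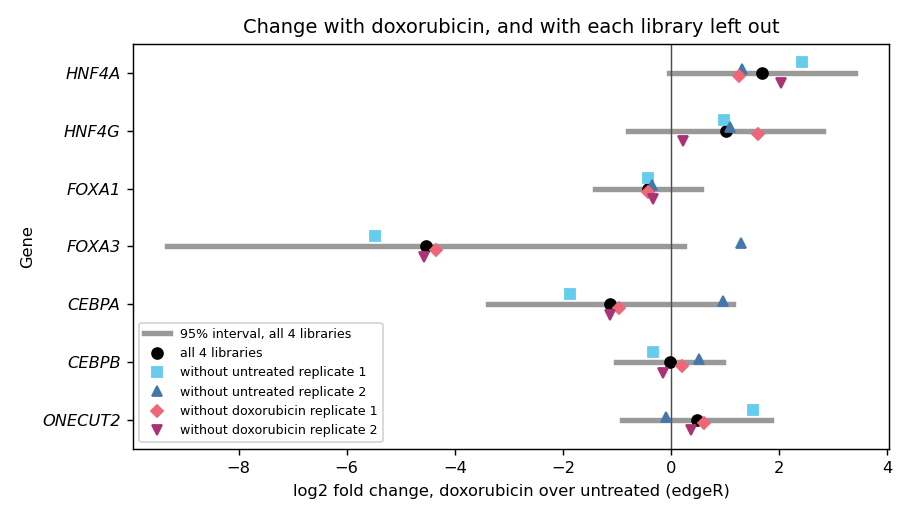
Log2 fold change of doxorubicin over untreated cells from edgeR (x axis) for the 7 factors tested. Black points use all 4 libraries with the 95% interval as a grey bar, and coloured points leave out 1 library each. FOXA1 stays between -0.42 and -0.34, while FOXA3 moves from -5.48 to 1.29 and CEBPA from -1.88 to 0.97 depending on which untreated library is left out.

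The difference between the untreated replicates was set beside these changes. On the log2 CPM scale with TMM factors, untreated replicate 2 exceeded replicate 1 by 6.42 in FOXA3 and by 2.89 in CEBPA, larger in size than in 99.95% and 93.6% of all genes tested. ONECUT2 was lower by 1.56 (a difference of -1.56) and HNF4A by 0.93 (-0.93), while CEBPB was higher by 0.90. The median size of this difference was 0.87 over all genes. In HNF4G and FOXA1 the untreated replicates were 0.16 and 0.12 apart. Between the doxorubicin replicates the 7 factors differed by between -0.74 and 1.31, the largest being HNF4G. What sets untreated replicate 2 apart was not tested.

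**Figure D5:**
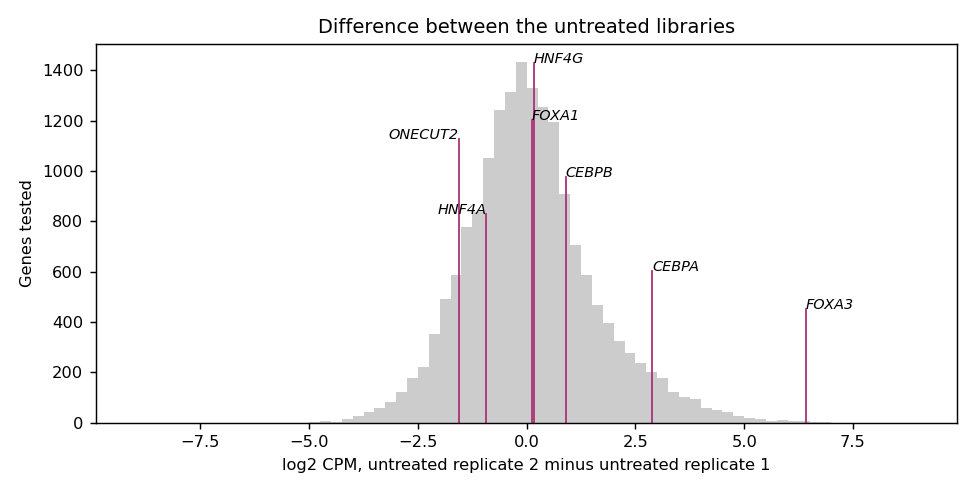
Histogram of the log2 CPM difference between untreated replicates 2 and 1 (x axis) over the 17479 genes tested (y axis, number of genes), with the 7 factors as lines of arbitrary height. FOXA3 (6.42) and CEBPA (2.89) lie in the right tail, and FOXA1 (0.12) and HNF4G (0.16) near the middle.

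Genes linked to CEBPB in the inflammatory and acute phase response were counted as a list of 14, of which 9 were tested. Of these, 0 passed the adjusted threshold and 3 had a positive change with an unadjusted p-value under 0.05 (IL1B, CXCL8 and LCN2). Over all 17479 genes tested, 465 had such a positive change, and 4.39% had such a p-value in either direction. IL1B and LCN2, with at most 15 counts in each untreated library, passed the filter on low counts through the doxorubicin libraries. The filter thus favored a positive change in both. The gene lists were written with earlier results of these data known, so these numbers of genes are a description and not a test. Without untreated replicate 2, 4 of the 9 were called as higher (IL1B, CXCL8, LCN2 and PTGS2), against 4.44% of all genes called. Without untreated replicate 1, 4 were called as higher and 1 as lower, against 44.4%, and PTGS2 turned from 1.39 to -1.33 between these 2 fits. DESeq2 called IL1B (log2 fold change 3.64, adjusted p-value 0.00429). Their median log2 fold change was 0.30, with 6 above 0 and 3 below. IL1B, an inflammatory cytokine, was at 0.193 and 0.519 CPM without the drug and at 3.47 and 6.82 CPM with it, and CXCL8, a chemokine for neutrophils, had 1.49 and 3.95 against 13.3 and 19.1. In both genes the treated libraries were above the untreated ones, as in 30.3% of all genes tested. LCN2, an iron-binding acute phase protein, had 3 and 7 counts against 55 and 30. Of the acute phase genes of the list, ORM1 and SERPINA3 had 0 counts in every library, CRP at most 1 and SAA1 at most 13, while C3, a complement gene, was expressed with a CPM of up to 182.

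Among the hepatocyte products 9 were tested, and their median log2 fold change was -0.019. The 3 fibrinogen chain genes had unadjusted p-values under 0.05, with log2 fold changes of 2.57 for FGA, 3.76 for FGB and 6.23 for FGG (standard errors 0.67, 0.69 and 0.72), and an adjusted p-value of 0.773 each (edgeR, Benjamini-Hochberg). FGA, FGB and FGG had at most 7 counts in each untreated library and passed the filter on low counts only through the doxorubicin libraries. The filter thus favored a rise in these genes, and the numbers of products above 0 are a description and not a test. In other fits some of the 3 genes were called. DESeq2 called FGB and FGG with adjusted p-values of 0.00751 and 2.58e-12, against 0.509% of all genes called. The edgeR fit with the replicate block called FGG with 0.000792, against 0.114%. FGA, FGB and FGG rose by a log2 of 2.86, 3.71 and 5.98 when untreated replicate 2 was left out. Of the 10 products tested in that fit, 9 were above 0 and 1 below, which was set in part by the filter. TF, which was highest in untreated replicate 2, was not tested there. The rise of FGA, FGB and FGG was 2.34, 3.92 and 6.69 when untreated replicate 1 was left out. Of the 12 products tested there, 7 were above 0 and 5 below, among them TF (-2.90) and AFP (-1.84). FGG was at 0.165 and 0.104 CPM without the drug and at 9.76 and 14.0 CPM with it. Of the 19 other liver factors 13 were tested, with 5 above 0 and 8 below and a median of -0.18. In the edgeR test 0 of them had an unadjusted p-value under 0.05, against 4.39% of all genes. Without untreated replicate 2 their median was 0.13, with 8 above 0 and 5 below (NR2F2 at -0.61). Without untreated replicate 1 it was -0.41 over 15 factors tested, with 6 above 0 and 9 below.

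Finally, the genes whose profile over the 4 libraries was most like that of each factor were listed by the Euclidean distance of log2 CPM after centring, as a description over 4 libraries that share a platform and the position of untreated replicate 2. The nearest to HNF4A was EYA1 (distance 0.0466), at 0.193 and 0.0693 CPM without the drug and 0.729 and 0.435 CPM with it. Its value in untreated replicate 2 was under the CPM of 3 counts there (0.104), so that this distance rests on few counts. The nearest to FOXA3 was RASD1 (0.0818), with a CPM of 36.4 in untreated replicate 2 and at most 0.943 elsewhere. The nearest were RPA1 for FOXA1 (0.0266), ERO1B as the second for CEBPA (0.117) after LINC00475 (0.103), ZNF420 for CEBPB (0.0286), RGPD6 for HNF4G (0.140) and DIAPH3 for ONECUT2 (0.0296).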

How the data were processed

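The data are RNA-seq counts of 4 HepG2 libraries, 2 untreated and 2 treated with doxorubicin. Per the labels and methods, reads were processed with FastQC and Cutadapt, mapped with HISAT2 to hg38 and counted with HTSeq, and the authors deposited raw counts per gene symbol against GENCODE release 31. Versions and the use of strand are not given in the sources used here, so that reads of overlapping and antisense genes cannot be told apart. Each library held between 27572740 and 36272180 counts.

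Gene positions and exon lengths came from GENCODE release 44 basic transcripts (GRCh38), matched by symbol for 36434 genes, and promoter windows from RefSeq (GRCh38.p14). The test across genes was that of edgeR 4.0.16 under R 4.3.3 (low counts removed by filterByExpr, TMM factors, glmQLFit in its current form, glmQLFTest, prior count of 0.125), with Benjamini-Hochberg adjustment over all 17479 genes tested. Standard errors were taken from the F statistic. The fit was tested on simulated data in which 200 genes were changed by a log2 of 2. It called 187 of the 192 changed genes tested, and 2 unchanged genes, at a dispersion (spread between replicates) of 0.01. At the dispersion estimated from these libraries it called 26 of 193, and 4 unchanged genes. A gene that was not called is thus not shown to be unchanged. The simulation gave both groups the same dispersion. In the data the median size of the log2 difference was 0.867 between the untreated and 0.250 between the doxorubicin replicates. Alternatives were RLE factors, library size alone, 2 other filters, DESeq2 1.42.0, the exact test, the replicate block, leaving out each library and a prior count of 2. The earlier form of the fit was added after seeing the data. Same-numbered libraries deviated together with a correlation of 0.0219. Tables were made with Python 3.11.15, pandas 2.3.3 and SciPy 1.17.1.

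The 8 genes and the lists were chosen with earlier results of these data known, and the genes named are the 8, the genes of these lists, annotated neighbours within 5 kb and the most alike profiles (3 per factor). Some genes of the lists are not reported here by name.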

Additional observations from a re-analysis of the deposited data

How the results depend on the processing

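With 2 libraries per group, leaving out 1 library changed the sign or the call of several factors. None of the factors tested was called under TMM or RLE factors, library size alone, either other filter, DESeq2, the exact test, the earlier form of the fit or the replicate block. Over all genes, 0 were called by the edgeR quasi-likelihood test (768 at an unadjusted p under 0.05), 89 by DESeq2, 46 by the exact test and 20 with the replicate block, which changed no call among the factors; same-numbered libraries share only a number. With each library left out, between 0 and 8697 genes were called (8697 without untreated replicate 1, 815 without untreated replicate 2), and between 0 and 4 factors, the 4 being HNF4A, FOXA3, CEBPA and ONECUT2 without untreated replicate 1. In these fits the lone library is assumed to vary like the other group.

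The number of factors with an unadjusted p under 0.05 was 0, and it was 1 with library size alone (HNF4A), with a CPM of at least 1 in 2 libraries (HNF4A), with DESeq2, the exact test and the replicate block (FOXA3 in each), 2 without a filter (HNF4A and FOXA3), and between 0 and 4 with each library left out. Library size alone moved the median of all genes from 0.013 to 0.17. The sign of CEBPB turned to 0.14 with library size alone, 0.067 without a filter and 0.035 with the replicate block. With each library left out, CEBPB was between -0.33 and 0.51 (0.20 without doxorubicin replicate 1), FOXA3 between -5.48 and 1.29, CEBPA between -1.88 and 0.97 and ONECUT2 between -0.087 and 1.53, where 0.51, 1.29, 0.97 and -0.087 are the values without untreated replicate 2. The cause was not tested. Of 89 values of the 7 factors under these alternatives, 77 kept their sign and side of the threshold. The median of the hepatocyte products was between -0.082 and 1.38 with each library left out, that of the CEBPB-linked genes between 0.28 and 0.85 and that of the other liver factors between -0.41 and 0.13. The hepatocyte products that passed the filter differed between these fits. The filter on CPM left out HNF4G and FOXA3.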
